A study of Mus musculus with 8 samples.

Results

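The genes described here encode proteins that find, mark or mend damaged DNA. They were taken by symbol: every gene whose annotated symbol starts with Ercc, Xrcc, Fanc, Parp, Nsmce, Msh or Mlh, every symbol made of Rad and a digit except the cohesin subunit Rad21, and single genes, of which those found were Xpa, Xpc, Lig1, Lig3, Brca2, Atm, Chek1, Chek2, Smc6 and Ogg1. The rule found 47 genes on 73 of the 20355 probes. Of these genes, 38 were measured on 3 or more arrays per condition and were tested together with all other features, 14015 of 16255 in all. The rule uses symbols and no measured value.

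Cells repair DNA by several routes that share few proteins. Nucleotide excision repair cuts out bulky lesions, base excision repair removes single altered bases, mismatch repair corrects copying errors, and double-strand breaks are joined end to end or copied from the sister chromatid by homologous recombination. Checkpoint kinases halt the cycle while repair proceeds, and embryonic stem cells, which cycle fast with a short gap before replication, are known for strong expression of many repair genes.

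RNA of the mouse embryonic stem (ES) cell line HM-1 and RNA of a second such line, R1, shared each of 8 cDNA arrays with 2 colours. On 4 arrays both lines had received nocodazole, which breaks down microtubules so that cells stop in mitosis, and on 4 arrays both were untreated. The sources used here give neither dose nor duration, and the title puts the question as one of line-dependent expression. HM-1 carried Cy5 on nocodazole replicates 1, 2 and 3 and untreated replicates 1 and 2, and Cy3 on nocodazole replicate 4 and untreated replicates 3 and 4. That is a swap on 37.5% of the arrays, where the design text gives 50%. The protocols also speak of organs and of a pooled reference from animals, which the channel labels do not match.

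Every value below is a log2 ratio between the lines with the sign of the deposited table, after each array was centred on its median. No source used here says which line was divided by which, so no line is called higher, and counts, medians and the leading genes are also given with the sign of the 3 arrays with HM-1 in Cy3 turned. Values on single arrays, and fitted ratios where nothing else is said, have the deposited sign. Treated and untreated cells never shared an array, so a difference between the conditions is a change of the line ratio and not an effect of the drug within a line. The ratios come from bulk RNA, in which fewer cells of a type and less RNA per cell cannot be told apart. Nothing in the labels says that replicates were separate cultures, so p-values cover only how far these arrays differed, a spread that may be technical.

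An array gave 17928 to 19445 values. The standard deviation (SD) of the features was 1.23 on nocodazole replicate 3 and between 0.74 and 0.87 on the other 7 arrays. Pearson's r across all features, which are not independent, ran from 0.016 to 0.23 in the 13 array pairs that share a dye label, and from -0.18 to 0.0057 in the 15 that do not. A ratio carries no level, so markers could not check what the cells were. Their medians depend on the reading of the signs. The tested markers of embryonic stem cells, 7 of 15 listed, had a median ratio of 0.024 with nocodazole and 0.17 untreated, or -0.049 and 0.10 with the Cy3 arrays turned. Those of feeder fibroblasts, 11 of 12 listed, had medians of -0.11 with nocodazole and -0.15 untreated, or -0.19 and -0.16 turned. Those of extraembryonic endoderm, 7 of 12 listed, had -0.30 with nocodazole and -0.68 untreated, and the opposite sign turned, at 0.26 with nocodazole and 0.032 untreated. Their part in the repair genes' ratios was not tested.

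None of the 38 tested repair genes passed an adjusted p of 0.05 in any of the 4 comparisons (limma with a term for the dye label, Benjamini-Hochberg over 14015 features), with either reading of the signs. The background was also 0% of all features in each of them. The smallest adjusted p of a repair gene was 0.999 for the line ratio with nocodazole, 0.631 for the untreated ratio, 0.897 for the mean of both conditions and 0.996 for the change of the ratio. The values that follow therefore describe single arrays and wide intervals, and none of these genes is reported as changed.

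The counts at an unadjusted p under 0.05 stayed small. With nocodazole 3 of 38 repair genes reached it (Ercc8, Ercc6 and Fancl), against 2.89% of all features. Untreated, 2 did (Ercc6 and Nsmce1), against 6.34%. Over the mean of both conditions 3 did (Ercc6, Nsmce4a and Nsmce1), against 5.53%, and for the change of the ratio 2 did (Ercc8 and Fancl), against 3.32%. With the Cy3 arrays turned the counts were 1 with nocodazole (Ercc6) against 5.11%, 7 untreated (Xrcc6, Brca2, Rad54l2, Rad9a, Ercc6, Xrcc3 and Parp2) against 10.6%, 5 over the mean (Ercc6, Xrcc6, Parp11, Brca2 and Xrcc3) against 10.6%, and 1 for the change (Xrcc6) against 4.89%. Ercc6 was the one repair gene in the lists for nocodazole, untreated and the mean under both readings, with opposite fitted signs in the 2 readings.

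**Figure D1:**
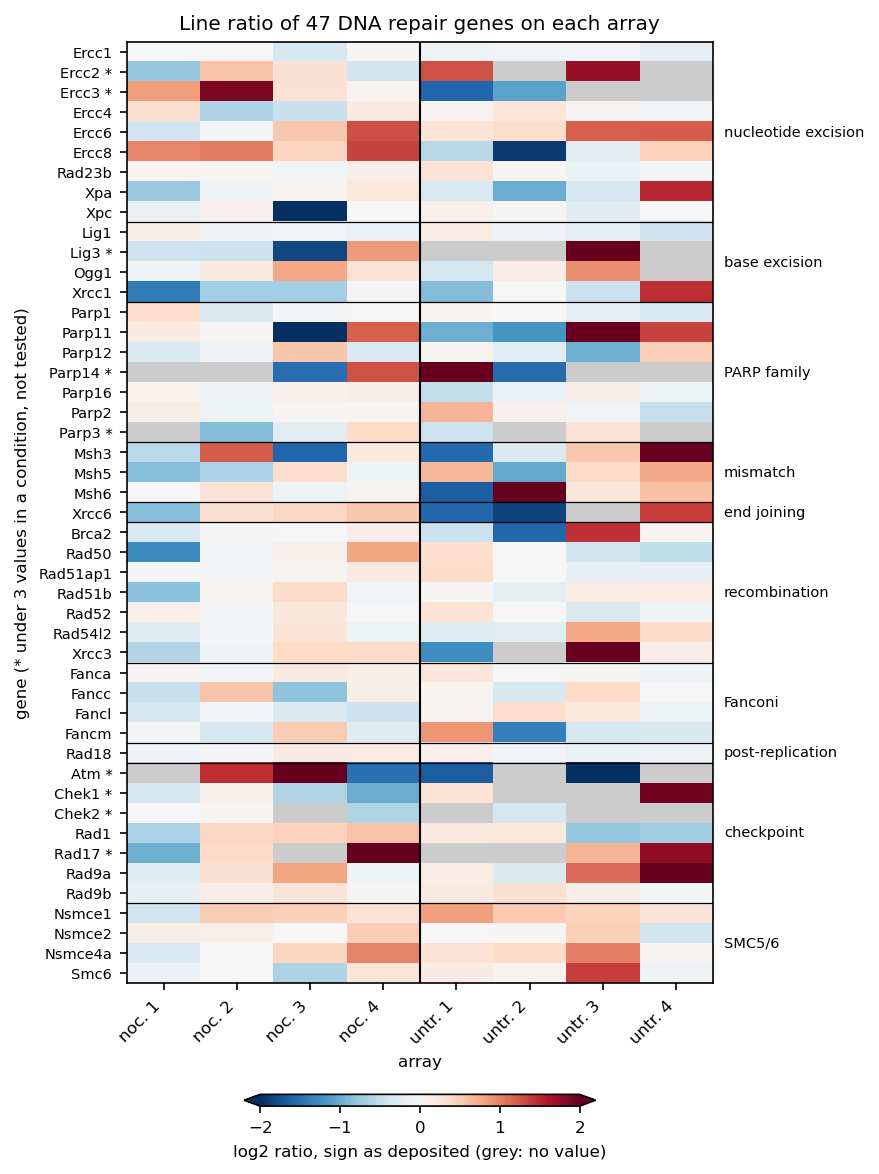
Centred log2 ratio between the lines, sign as deposited, for the 47 repair genes (rows, by repair route) on the 4 nocodazole arrays (left) and the 4 untreated arrays (right). Colours run from -2 to 2, grey marks no value, and a star marks the 9 genes with too few values to test. Most rows are pale, and the strongest cell is Parp11 at -4.33 on nocodazole replicate 3, in a row that also holds the opposite colour. Xpc stands out on that array alone, at -2.94.

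The promoters of the 3 genes with an unadjusted p under 0.05 for the mean of both conditions are shown so that a reader can see the regulatory sequence of the genes that led the comparison. Sequences are from RefSeq (GRCm38.p6), 250 bases before to 50 bases after the annotated start, 5′ to 3′ on the gene's strand, with motif matches in capitals. Ercc6 lies on the plus strand at chr14:32513271-32513570, Nsmce1 on the minus strand at chr7:125491394-125491693, and Nsmce4a on the minus strand at chr7:130547332-130547631.
Ercc6: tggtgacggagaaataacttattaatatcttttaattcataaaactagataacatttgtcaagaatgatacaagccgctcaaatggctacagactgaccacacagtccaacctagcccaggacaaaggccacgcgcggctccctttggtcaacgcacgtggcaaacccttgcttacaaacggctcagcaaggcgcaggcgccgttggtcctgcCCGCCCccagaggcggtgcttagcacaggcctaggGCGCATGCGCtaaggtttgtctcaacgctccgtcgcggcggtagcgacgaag
Nsmce1: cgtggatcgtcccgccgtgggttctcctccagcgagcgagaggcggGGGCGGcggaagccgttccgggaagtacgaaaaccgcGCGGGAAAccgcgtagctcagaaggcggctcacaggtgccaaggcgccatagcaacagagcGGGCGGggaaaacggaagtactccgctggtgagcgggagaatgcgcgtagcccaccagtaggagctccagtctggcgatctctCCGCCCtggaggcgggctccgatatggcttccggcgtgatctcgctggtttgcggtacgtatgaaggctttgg
Nsmce4a: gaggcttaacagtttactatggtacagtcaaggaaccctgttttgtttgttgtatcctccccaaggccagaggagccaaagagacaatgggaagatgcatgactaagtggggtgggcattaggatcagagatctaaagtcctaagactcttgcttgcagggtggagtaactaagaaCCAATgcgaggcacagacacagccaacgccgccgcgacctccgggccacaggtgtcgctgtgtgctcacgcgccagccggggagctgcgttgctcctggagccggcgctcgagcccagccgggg

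The motifs searched on both strands were the CCAAT box (CCAAT), the GC box (GGGCGG), an E2F site (TTTCCCGC or TTTGGCGC), the GCGCATGC core of the NRF1 site, and the TATA box (TATAAA). The Ercc6 promoter held 1 GC box and 2 overlapping GCGCATGC matches at the start itself. The Nsmce1 promoter shown held 3 GC boxes and 1 E2F match at position -167. A second Nsmce1 promoter in the table, at chr7:125487910-125488209, held 1 CCAAT box and neither of those motifs. The promoter of Nsmce4a held 1 CCAAT box, at position -74. Over the 47 promoters of 40 repair genes found in the table, 14.9% held an E2F match, against 1.56% of 32851 promoters, namely those of Brca2, Chek2, Msh3, Msh5, Msh6, Nsmce1 and Xrcc6. GCGCATGC stood in 12.8% of the repair promoters against 2.71%, the CCAAT box in 51.1% against 37.4%, the GC box in 51.1% against 35.7%, and the TATA box in 10.6% against 13.6%. The median GC content was 59% against 52.7%. These are letter matches, shown as description. Fitted ratios with nocodazole of the 6 tested genes with an E2F match ran from -0.17 for Msh5 to 0.55 for Xrcc6.

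Nucleotide excision repair was represented by 9 genes, of which 7 were tested. Ercc6 and Ercc8, whose human counterparts are mutated in Cockayne syndrome, clear RNA polymerase stalled at lesions. Ercc6, the ATPase of that pathway, had values of -0.39, -0.027, 0.54 and 1.28 on nocodazole replicates 1 to 4 and of 0.28, 0.35, 1.20 and 1.21 on untreated replicates 1 to 4. The values of the conditions overlapped, and those with HM-1 in Cy3 were the highest of each condition. They averaged 0.35 ± 0.73 with nocodazole and 0.76 ± 0.51 untreated (SD, n = 4 each). By dye label they averaged 0.15 over the 5 Cy5 arrays and 1.23 over the 3 Cy3 arrays. The fit, which weights both labels equally, gave 0.61 (SE 0.17) with nocodazole, 0.76 (SE 0.16) untreated and 0.69 (SE 0.11, adjusted p = 0.897, limma) for the mean. With the Cy3 arrays turned these became -0.65, -0.45 and -0.55, so the sign of Ercc6 rests on how the table is read. The values of Ercc6 are means of 2 probes. Probe 9247 gave 0.395, -0.027, 0.54 and 0.53 with nocodazole and -0.30, 0.35, 0.98 and 1.21 untreated. Probe 11186 had 4 values, -1.17 and 2.04 on nocodazole replicates 1 and 4 and 0.87 and 1.42 on untreated replicates 1 and 3. Fitted singly, probe 9247 had 0.54 with nocodazole, 0.56 untreated and 0.55 for the mean.

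Ercc8, a WD-repeat subunit of a ubiquitin ligase in the same pathway, had 0.98, 1.04, 0.43 and 1.35 with nocodazole and -0.56, -1.92, -0.20 and 0.46 untreated. All nocodazole values were positive, and the lowest of them lay just under the highest untreated one. They averaged 0.95 ± 0.38 with nocodazole and -0.56 ± 1.0 untreated (SD, n = 4 each). The fitted change of the ratio was 1.76 (SE 0.38, adjusted p = 0.996, limma), or 0.89 with the Cy3 arrays turned. The fitted ratio with nocodazole was 1.20 as deposited and 0.20 turned. The 2 probes behind it differed. Probe 7707 gave 1.98, 1.80, 0.90 and -0.15 with nocodazole and -1.15, -3.99, -0.32 and 1.07 untreated. Probe 9905 stayed between -0.15 and 0.28 on every array but nocodazole replicate 4, where it was at 2.86. The mean of both probes was thus positive on nocodazole replicates 1 to 3 through one probe and on replicate 4 through the other.

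Other excision repair genes stayed closer to 0 or scattered. Ercc1, which with Ercc4 forms the nuclease that cuts 5′ of the lesion, had 0.0045, -0.004, -0.34 and 0.052 with nocodazole and -0.08, -0.047, -0.048 and -0.20 untreated. Its 95% interval for the change ran from -0.32 to 0.38. Xpa, the scaffold that verifies the lesion, had -0.75, -0.079, 0.071 and 0.22 with nocodazole and -0.30, -0.99, -0.34 and 1.51 untreated. Neither gene separated the conditions. Xpc, the damage sensor that works with Rad23b, had -0.13, 0.081, -2.94 and 0.003 with nocodazole and 0.10, 0.024, -0.25 and -0.015 untreated. Nocodazole replicate 3 lay far below the other 7 arrays of Xpc. Ercc4 had fitted ratios of -0.11 with nocodazole and 0.07 untreated, and Rad23b of 0.013 with nocodazole and 0.031 untreated. Ercc2 and Ercc3, the helicases of the transcription factor that opens DNA around a lesion, had values on 2 untreated arrays each and were not tested. Ercc2 had -0.75, 0.56, 0.30 and -0.36 with nocodazole and 1.28 and 1.74 on untreated replicates 1 and 3. Ercc3 had 0.83, 1.89, 0.29 and 0.072 with nocodazole and -1.59 and -1.07 on untreated replicates 1 and 2. For both of these the values of the conditions did not overlap, in opposite directions, on 1 probe each. Values did not overlap either for Atm, Chek1 and Lig3, also untested and described below, each on 1 probe with 1 or 2 untreated values. The share of all features with so few values that did so was not computed, and the share given below for tested features does not cover them. These separations are therefore not reported as a result about the repair genes. With the Cy3 arrays turned, the values of Ercc2, Atm and Chek1 overlapped. Those of Ercc3 still did not, and the 1 untreated value of Lig3 then lay below its nocodazole values.

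In base excision and single-strand break repair, none of the 3 tested genes reached an unadjusted p under 0.05 in any comparison with the deposited signs. Ogg1, the glycosylase that removes oxidised guanine, had -0.11, 0.19, 0.77 and 0.27 with nocodazole and -0.36, 0.15 and 0.93 on untreated replicates 1 to 3. Xrcc1, the scaffold that holds the ligase Lig3 at nicks, had -1.39, -0.68, -0.69 and -0.046 with nocodazole and -0.86, -0.011, -0.43 and 1.47 untreated. Xrcc1 was negative on 7 of 8 arrays, and its conditions overlapped. Its 2 probes differed in spread: probe 7245 gave between -2.87 and 3.36, while probe 12252 stayed between -0.41 and 0.17. Lig1, the replicative ligase, had a fitted ratio of -0.10 with nocodazole and -0.14 untreated, with a 95% interval inside 1.5-fold in either direction in both. Lig3 had -0.42, -0.43, -1.81 and 0.86 with nocodazole and a single untreated value of 2.30 on replicate 3, and was not tested.

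The poly(ADP-ribose) polymerase family held genes of narrow and of wide spread. Parp1, the main sensor of strand breaks, had 0.35, -0.29, -0.032 and 0.009 with nocodazole and 0.05, -0.002, -0.16 and -0.31 untreated. Its 95% interval was -0.34 to 0.29 with nocodazole and -0.40 to 0.19 untreated. Both lie within 1.5-fold in either direction, and they cover only the spread between these arrays. Parp11, a mono-ADP-ribosylating member, had 0.17, 0.031, -4.33 and 1.19 with nocodazole and -0.97, -1.18, 2.39 and 1.35 untreated. On untreated arrays Parp11 was negative where HM-1 carried Cy5 and positive where it carried Cy3. Parp2, the second strand-break sensor, Parp12 and Parp16 had fitted ratios between -0.10 and 0.10 with nocodazole and between -0.17 and 0.065 untreated. Parp14 and Parp3 had too few values to test.

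All 3 mismatch repair genes found were MutS homologues. Msh6, which takes part in reading base mismatches, had 0.007, 0.29, -0.10 and 0.072 with nocodazole and -1.65, 3.39, 0.22 and 0.59 untreated. The spread was 0.16 with nocodazole and 2.08 untreated (SD, n = 4 each), on 1 probe. The untreated array at 3.39 and that at -1.65 carried the same dye label. Msh3, its counterpart for larger loops, and Msh5, which acts in meiotic crossing over, had fitted ratios of 0.19 and -0.17 with nocodazole and 0.21 and 0.19 untreated.

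Double-strand break repair was represented by Xrcc6 for end joining and by 7 genes for homologous recombination. Xrcc6, the Ku70 subunit that caps broken ends, had -0.85, 0.32, 0.41 and 0.55 with nocodazole and -1.58, -1.85 and 1.38 on untreated replicates 1, 2 and 4. Its untreated values were negative with HM-1 in Cy5 and positive with HM-1 in Cy3. The fitted untreated ratio was -0.39 (SE 0.46) as deposited and -1.62 with the Cy3 arrays turned, the smallest adjusted p of any repair gene in that reading (0.211, limma). Turned, its nocodazole and untreated values did not overlap.

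Among the recombination genes, Brca2, which loads the recombinase on DNA, had -0.31, 0.016, -0.001 and 0.14 with nocodazole and -0.43, -1.57, 1.47 and 0.064 untreated. Rad50, the tethering subunit of the end-processing complex, had -1.27, -0.019, 0.092 and 0.79 with nocodazole and 0.34, -0.001, -0.37 and -0.51 untreated. Both genes crossed 0 in each condition. Rad54l2, a chromatin remodeller related to Rad54, had -0.24, -0.022, 0.28 and -0.11 with nocodazole and -0.24, -0.21, 0.78 and 0.37 untreated. Xrcc3, a paralogue of the recombinase, had -0.59, -0.072, 0.40 and 0.38 with nocodazole and -1.24, 2.04 and 0.13 on untreated replicates 1, 3 and 4. On the untreated arrays Brca2, Rad54l2 and Xrcc3 were negative with HM-1 in Cy5 and positive with HM-1 in Cy3. Rad51ap1, Rad51b and Rad52, which assist or mediate strand exchange, had fitted ratios between -0.07 and 0.03 with nocodazole and between -0.019 and 0.03 untreated.

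The Fanconi anaemia pathway unhooks cross-linked strands, and 4 of its genes were tested. Fancl, the ubiquitin ligase of the core complex, had -0.34, -0.03, -0.28 and -0.42 with nocodazole and 0.056, 0.36, 0.21 and -0.081 untreated. All nocodazole values were negative, and 1 untreated value lay among them. They averaged -0.27 ± 0.17 with nocodazole and 0.14 ± 0.19 untreated (SD, n = 4 each), with a fitted change of -0.45 (SE 0.16, adjusted p = 0.996, limma). Once the Cy3 arrays were turned, the change was -0.096, the fitted ratio with nocodazole was -0.026 in place of -0.31, and replicate 4 was positive. Among the 3 probes the widest was probe 6277, at -0.91, -0.067, -1.05 and -1.38 with nocodazole and 1.36 on untreated replicate 2, its only untreated value. With only the probes measured on all 8 arrays averaged, an alternative added after the values were seen, the change was 0.02. Fanca, a core complex subunit, had 0.02, -0.053, 0.19 and 0.12 with nocodazole and 0.23, -0.014, 0.029 and -0.084 untreated. Fancc, of the same complex, had fitted ratios of -0.06 with nocodazole and 0.03 untreated, and Fancm, the helicase that recruits it, -0.07 with nocodazole and -0.29 untreated. Rad18, the ubiquitin ligase of post-replication repair, was among the steadiest of all, with 8 values between -0.12 and 0.16.

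The checkpoint genes were the group most poorly covered, with 3 of 7 tested. Atm, the kinase that answers double-strand breaks, had 1.47, 2.85 and -1.49 on nocodazole replicates 2 to 4 and -1.65 and -2.07 on untreated replicates 1 and 3. Chek1, a kinase downstream of the replication checkpoint, had -0.34, 0.08, -0.60 and -0.99 with nocodazole and 0.28 and 1.94 on untreated replicates 1 and 4. Chek2, which Atm activates, had -0.012, 0.028 and -0.60 on nocodazole replicates 1, 2 and 4 and -0.34 on untreated replicate 2. These kinases and Rad17, the clamp loader, were not tested, with a value on at most 2 untreated arrays each. Rad9a, a subunit of the checkpoint clamp, had -0.23, 0.31, 0.79 and -0.085 with nocodazole and 0.15, -0.29, 1.13 and 2.20 untreated, and its conditions overlapped. Its 2 probes differed: probe 17026 stayed between -0.22 and 0.19, while probe 19721 reached 4.34. Rad1, another clamp subunit, had fitted ratios of 0.12 with nocodazole and -0.26 untreated, and Rad9b, a paralogue of Rad9a, 0.03 with nocodazole and 0.15 untreated.

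The SMC5/6 complex, a ring that holds sister chromatids in register during recombination, was the group in which all 4 tested genes had a positive fitted ratio in both conditions. Over all 14015 features, 6815 fitted ratios were positive with nocodazole and 6847 untreated. Nsmce1, its RING subunit, had -0.38, 0.48, 0.48 and 0.29 with nocodazole and 0.81, 0.52, 0.45 and 0.26 untreated. Nsmce1 was positive on 7 of 8 arrays and averaged 0.22 ± 0.41 with nocodazole and 0.51 ± 0.23 untreated (SD, n = 4 each). The fitted mean was 0.35 (SE 0.13, adjusted p = 0.897, limma), and 0.016 with the Cy3 arrays turned. Nsmce4a, the kleisin subunit, had -0.30, 0.0023, 0.43 and 1.0 with nocodazole and 0.28, 0.36, 1.0 and 0.055 untreated. Its values overlapped between the conditions and were positive on 7 of 8 arrays, with a fitted mean of 0.42 (SE 0.15, adjusted p = 0.897, limma). The share of all features positive on 7 of 8 arrays was not computed. After the turn of the Cy3 arrays, that mean was -0.28.

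Among the 3 probes of Nsmce4a, probe 1292 was positive on all 7 arrays that measured it, between 0.33 and 1.86, while probe 4086 lay between -0.14 and 0.23 and probe 5507 between -1.21 and 2.14. Probe 4086, the only one with values on all arrays, had single fits of 0.099 with nocodazole, 0.024 untreated and 0.062 for the mean. Those of probe 1292 were 1.02 with nocodazole, 0.58 untreated and 0.80 for the mean. Smc6, a core ATPase of the ring, had -0.12, 0.005, -0.61 and 0.24 with nocodazole and 0.16, 0.073, 1.38 and -0.10 untreated. Its probes 1557 and 17454 kept within -0.29 and 0.25 on all arrays, and probe 11454, measured on 4 arrays, ran up to 4.41. Fitted singly, probe 1557 had -0.011 with nocodazole and 0.082 untreated, and probe 17454 had -0.14 and -0.0765. The positive fitted ratio of Smc6 with nocodazole was thus not shared by its complete probes. Nsmce2, the SUMO ligase, had fitted ratios of 0.23 with nocodazole and 0.03 untreated, and was positive on all 4 nocodazole arrays. The median fitted ratio of the 4 genes was 0.21 with nocodazole, 0.40 untreated and 0.27 over both. In the turned reading, the medians were -0.24 with nocodazole, -0.06 untreated and -0.18 over both, and the shared sign was negative for all 4 with nocodazole and for 3 of 4 untreated.

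**Figure D2:**
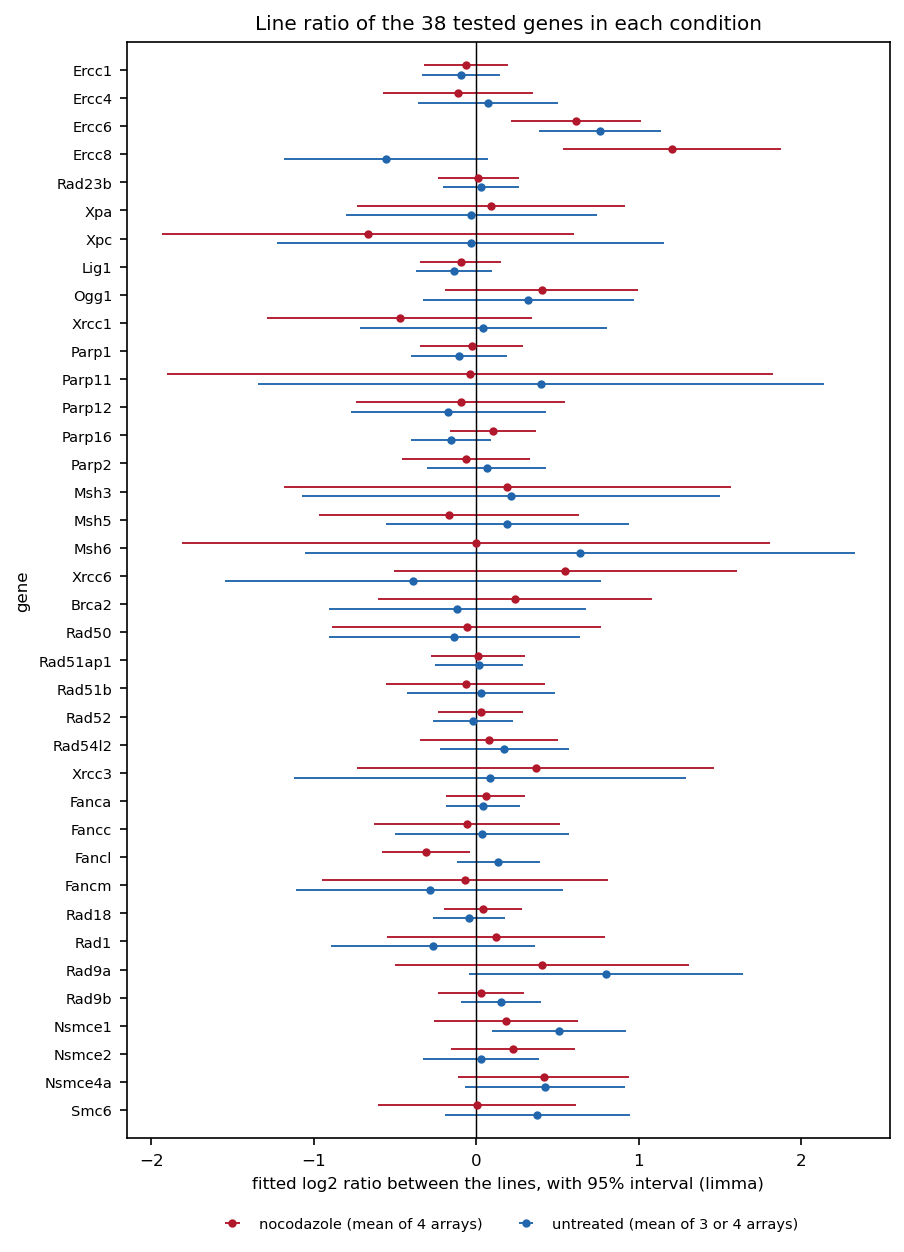
Fitted log2 ratio between the lines for each of the 38 tested repair genes, with 95% intervals from limma, with nocodazole (red) and untreated (blue), sign as deposited. Intervals of Ercc6 lie above 0 in both conditions, those of Ercc8 with nocodazole and Nsmce1 untreated lie above 0, that of Fancl with nocodazole lies below 0, and all others include 0, without adjustment for the number of genes.

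Over the 38 tested repair genes the median fitted ratio was 0.02 with nocodazole, 0.03 untreated, 0.018 for the mean and -0.006 for the change. Over all features the medians were -0.0056 with nocodazole, -0.0048 untreated, -0.0079 for the mean and -0.0018 for the change. The median absolute ratio of the repair genes was 0.10 with nocodazole and 0.14 untreated, against 0.14 in each condition over all features. On single arrays their median was -0.15, -0.012, 0.088 and 0.12 with nocodazole and 0.063, -0.011, 0.11 and -0.015 untreated. Read with turned Cy3 arrays, the median of the repair genes was -0.072 with nocodazole, with 7 positive and 31 negative, and 0.0052 untreated, with 19 of each sign. It was -0.086 for the mean and -0.091 for the change. Over all features the turned medians were 0.0013 with nocodazole, 0.004 untreated, -0.012 for the mean and -0.0026 for the change. In that reading 7030 features were positive and 6985 negative with nocodazole, and 7106 positive and 6909 negative untreated. As deposited, 23 repair genes were positive and 15 negative in each condition, so their leaning with nocodazole depends on the reading.

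Sharing of signs between arrays also depended on the reading. As deposited, none of the 35 repair genes with 8 values kept one sign on all of them, where 0.839% of all features did. One sign on all 4 nocodazole arrays was found for 4 of 38 (Ercc8 and Nsmce2 positive, Fancl and Xrcc1 negative), against 10.1% of features. On all 4 untreated arrays it was found for 4 of 35 (Ercc6, Nsmce1 and Nsmce4a positive, Ercc1 negative), against 13.7%. Ercc6 was among them only as a mean of 2 probes, since its complete probe 9247 was at -0.30 on untreated replicate 1. No tested repair gene had nocodazole and untreated values that did not overlap, against 2.70% of features. Once the Cy3 arrays were turned, 0 of 35 kept one sign on all 8 arrays, against 3.31% of features, and 0 of 38 on the 4 nocodazole arrays, against 15.8%. On the 4 untreated arrays 9 of 35 did (Brca2, Msh3, Parp11, Parp2, Rad1, Rad23b, Rad51ap1, Rad54l2 and Xpc), against 20.9%. Values of the conditions did not overlap for 1 of 38, Xrcc6, against 4.59%.

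For part of the genes the interval, which covers only the spread between these arrays, was narrow. The 95% interval lay within 1.5-fold in either direction for 15 of 38 repair genes with nocodazole (39.5%, against 43.7% of all features) and for 17 untreated (44.7% against 45.3%). For the mean of both conditions it did so for 20 genes (52.6% against 58.7%). For the change of the ratio it did so for 9 genes: Ercc1, Fanca, Lig1, Parp1, Rad18, Rad23b, Rad51ap1, Rad52 and Rad9b (23.7% against 28.7%). For the other 29 genes the interval did not exclude a change of that size, and that of Ercc8 lay wholly beyond it, from 0.84 to 2.68, before any adjustment. After the turn of the Cy3 arrays, the counts were 17 with nocodazole (44.7% against 43.9% of all features) and 16 untreated (42.1% against 44.6%). They were 20 for the mean (52.6% against 58.0%) and 10 for the change (26.3% against 28.8%).

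Probes of one gene often disagreed. In 21 repair genes at least 2 probes had 4 or more values each, and the SD of the widest was a median 4.35 times that of the tightest, above 3 times in 14 genes (66.7%). Over 2906 named genes the median was 3.04 times, and 50.8% exceeded 3 times. The widest gap was in Smc6, with an SD of 2.67 for probe 11454 and 0.12 for probe 1557. Rad9a had 1.81 for probe 19721 against 0.14 for probe 17026, and Xrcc1 2.16 for probe 7245 against 0.17 for probe 12252.

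**Figure D3:**
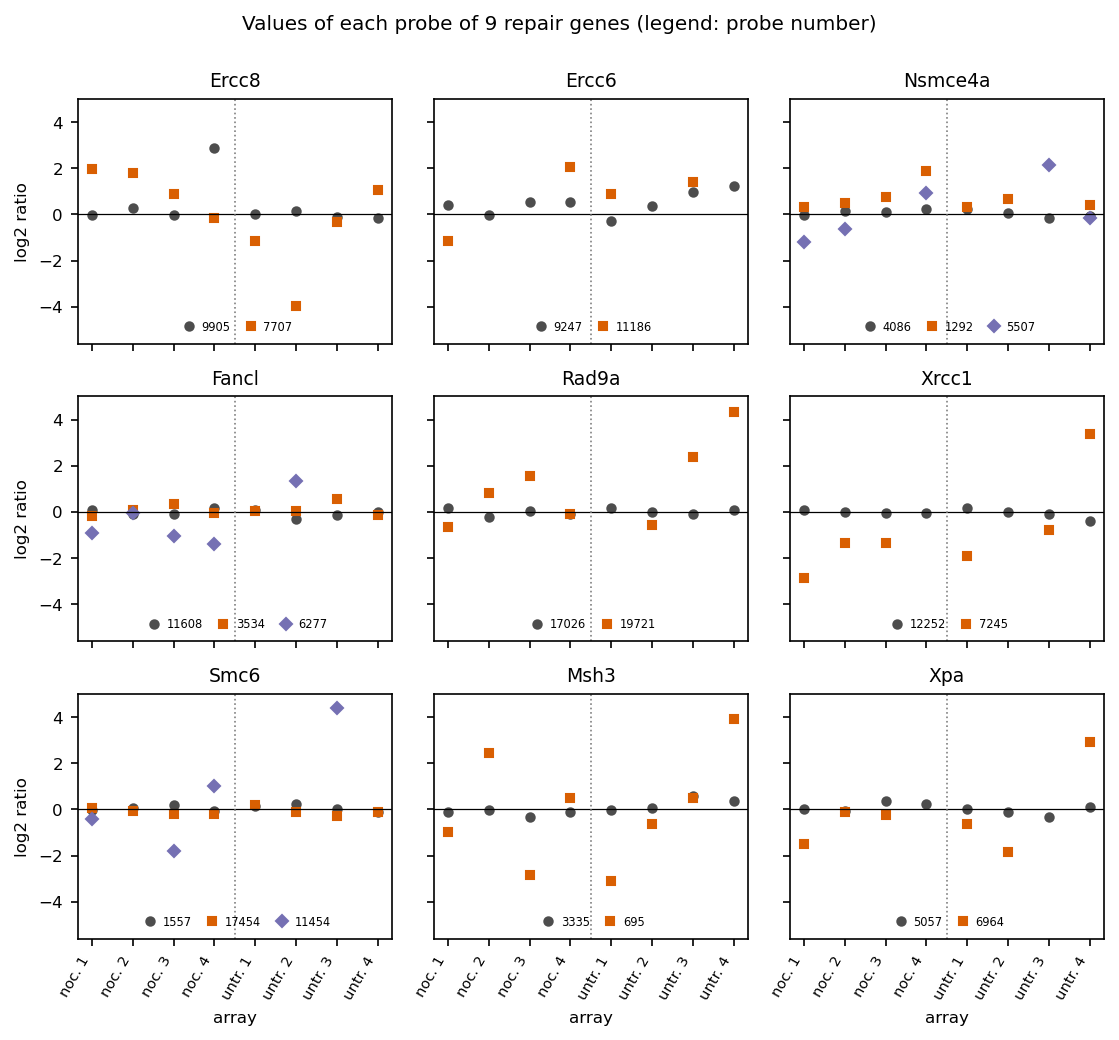
Log2 ratio of each probe of 9 repair genes on the 4 nocodazole arrays (left of the dotted line) and the 4 untreated arrays (right), with the probe numbers in the legends. In Rad9a, Xrcc1, Smc6, Msh3 and Xpa one probe varies little between arrays while another swings by several log2 units.

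The steady and the swinging probes also differed in completeness. Of the 73 probes, 23 had an SD under 0.25 over the arrays and held a value on all of them. Once an inferred offset per array was taken off, 8.15% of their values were those of 2 whole numbers, none above 10, divided by each other. Another 26 probes had an SD over 1, lacked 25.5% of their values, and had 27.3% of the rest equal to such a ratio. The probes with values on all 8 arrays (44) had a median SD of 0.23, and those with fewer (29) of 1.27. Over all named probes the medians were 0.32 with 8 values and 1.23 with fewer. The brightness behind a ratio is not known here, and its part in the wide ratios was not tested. Atm, Chek1, Chek2, Ercc2, Ercc3, Lig3, Parp14, Parp3 and Rad17, the 9 untested genes, each rested on 1 incomplete probe.

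**Figure D4:**
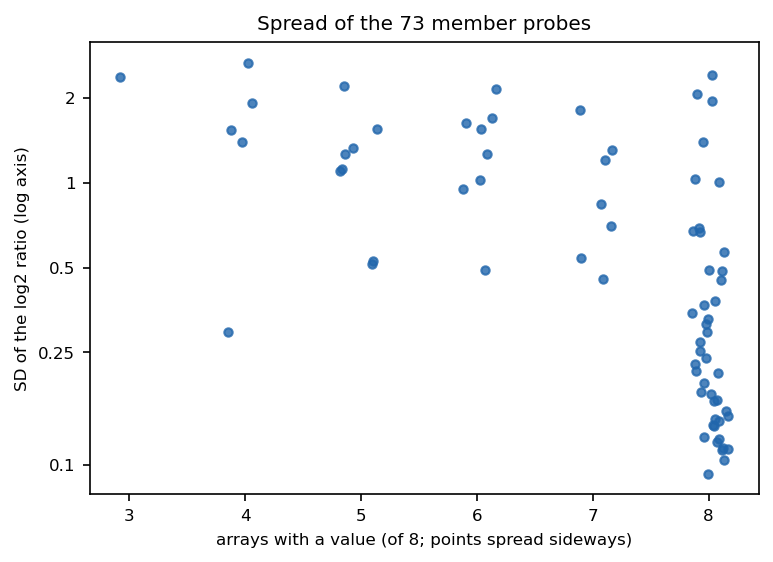
SD of the log2 ratio over the arrays (log axis) against the number of arrays with a value, for each of the 73 probes of the repair genes. Points are spread sideways for legibility. Probes with values on all 8 arrays reach down to an SD of 0.093, and of those with fewer values only 1 lies below 0.45.

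Among 93 other repair genes listed, 56 were tested, and none passed the adjusted threshold. With nocodazole 3 of 56 reached an unadjusted p under 0.05, against 2.89% of all features: Gtf2h3, a subunit of the transcription and repair factor TFIIH, at -1.03, Faap24, a partner of Fancm, at 0.49, and Alkbh2, a demethylase of DNA bases, at 0.46. Untreated, 3 did, against 6.34%: Ube2a, the partner of Rad18, at 1.37, Mdc1, which binds marked histones at breaks, at 0.44, and Faap24 at -0.44. For the mean of both conditions 1 did, Ube2a, at 0.90, against 5.53%. For the change 4 did, against 3.32%, with Recql, a helicase, at -0.66, Gtf2h3 at -1.07, Faap24 at 0.93 and Alkbh2 at 0.66. Faap24 had 0.46, 0.30, 0.071 and 0.45 with nocodazole and -0.96, -1.01, 0.45 and -0.23 untreated, and 1 untreated array lay among the nocodazole values. In the turned reading, the counts were 4 of 56 with nocodazole (Ube2a, Uvssa, Gtf2h3 and Polh), against 5.11% of all features, and 7 untreated, among them Apex2, Mad2l2, Apex1, Cul4a, Polh and Mpg, against 10.6%. They were 11 for the mean, with Ube2a, Polh, Apex1, Helq, Recql5 and Shprh of smallest p, against 10.6%, and 2 for the change (Uvssa and Trp53bp1), against 4.89%. Ube2a, at 0.90 for the mean as deposited, was at -1.54 turned. Gtf2h3 with nocodazole was at -1.02 turned. Its values on nocodazole replicates 1 to 4 were -1.94, -2.04, -0.73 and -0.016. Of these only replicate 4, at -0.016, is turned, so the turn could hardly move this ratio and does not check it.

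Genes that peak in other phases of the cycle were listed as well, since nocodazole holds cells in mitosis. With nocodazole 1 of 19 tested genes of the G1/S transition and replication (Uhrf1) and 0 of 23 genes of G2 and mitosis reached an unadjusted p under 0.05 with the deposited signs, against 2.89% of all features, and for the change 0 of either list did, against 3.32%. Untreated, 3 of 19 (Ccne1, Rrm1 and E2f1) and 4 of 23 (Cdk1, Cdc20, Cenpe and Tpx2) did, against 6.34%. For the mean 5 of 19 (Ccne1, Rrm1, Rrm2, Uhrf1 and E2f1) and 2 of 23 (Cdc20 and Cenpe) did, against 5.53%. Read with turned Cy3 arrays, 0 of 19 and 3 of 23 (Ccna2, Birc5 and Kif20a) did with nocodazole, against 5.11%, and 0 of 19 and 2 of 23 (Ccna2 and Mad2l1) for the change, against 4.89%. Turned counts were 0 of 19 and 4 of 23 untreated and 0 of 19 and 5 of 23 for the mean, against 10.6% in both. No gene of either list passed the adjusted threshold. Their median change of the line ratio was 0.067 for G1/S and 0.11 for G2 and mitosis, beside -0.006 for the repair genes. Turned, it was -0.027 for G1/S and -0.18 for G2 and mitosis, beside -0.091. Both lines on an array had the same treatment, so a shift of the cycle shared by the lines would not show in a ratio.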

How the data were processed

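Ratios of the 2 channels were taken as deposited, on the log2 scale, for each probe on 8 arrays. No source used here names the authors' software, their background correction or their normalization. The largest values were taken to be ratios with a denominator of 0 that stand as 100000. From them, 1 added offset per array was worked out. Neither this coding nor the offset is stated in a source used here. Absolute values above 10 on the log2 scale were set to missing. Per the labels, samples were grouped by title. Symbols came from the platform's annotation, which gives 14030 probes a single symbol, 5 probes several and 6320 no symbol, and 13994 probes matched the RefSeq gene table (GRCm38.p6). Probes of one symbol were averaged, and features with values on at least 3 arrays of each condition were kept. Where the text names a fit, arrays without a value for that gene did not enter it.

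The 4 comparisons were tested with limma 3.58.1 (lmFit and eBayes, R 4.3.3, statmod 1.5.0) over all 8 arrays, with a coefficient per condition and a dye term (0.5 for Cy5, -0.5 for Cy3), two-sided, adjusted by Benjamini-Hochberg over 14015 features with a threshold of 0.05. The script was tested on simulated data. The direction of the ratios, the background and the normalization stay unknown, and the number of arrays limits the precision. A value counted as a ratio of whole numbers up to 10 within 0.0015 on the log2 scale, after the inferred offset of its array was taken off.

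The members, gene lists and tests were chosen with earlier results of these data known. All 47 genes are named. Values on each array are given for genes with an unadjusted p under 0.05 in a comparison under either reading (at most 6 per comparison and reading) and for defining genes of each repair route. The deviations of nocodazole and untreated arrays with the same replicate number correlated at 0.14, 0.038, -0.051 and 0.13, so the numbers were not taken as pairs.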

Additional observations from a re-analysis of the deposited data

Results flagged for a closer look

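In 4 of 77 groups of 4 values, read with the deposited signs, Dixon's test at 95% set 1 array apart, where chance gives about 1 in 20 groups, or 3.85. Xpc was at -2.94 on nocodazole replicate 3, against -0.13 to 0.081 on the other nocodazole arrays. Ercc1 was at -0.34 on the same array, against -0.004 to 0.052. Rad1 was at -0.64 on nocodazole replicate 1, against 0.42 to 0.57 on the others, and Xrcc6 was at -0.85 there, against 0.32 to 0.55. With the Cy3 arrays turned 4 of 77 groups had 1 array apart: Xpc and Ercc1 as before, Rad18 on untreated replicate 2 and Smc6 on untreated replicate 3, and neither Rad1 nor Xrcc6.

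Ercc3 had only positive ratios with nocodazole (4 arrays) and only negative ones untreated (2 arrays), with means of 0.77 with nocodazole and -1.33 untreated, a difference of 2.10. This difference was not tested, and the signs were no longer opposite with the Cy3 arrays turned.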

How the results depend on the processing

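Under 22 alternatives no repair gene passed the adjusted threshold in any comparison, and the smallest adjusted p of one was 0.107 (Ercc6, mean of both conditions, without nocodazole replicate 1; over its alternatives 0.107 to 0.996). The count of features called was 0 throughout, except for 1 feature in the nocodazole ratio with values on all 8 arrays and with only probes measured on all 8 arrays averaged, and a range of 0 to 1 for the change when each array was left out in turn, with 1 without untreated replicate 1. None of these was a repair gene. With the Cy3 arrays turned, Ercc6 reversed to -0.65 with nocodazole, -0.45 untreated and -0.55 over the mean, Nsmce4a over the mean reversed to -0.28, and the median of the repair genes over the mean was -0.086. Fancl with nocodazole was 0.051 with single probes as features and 0.045 with only complete probes averaged (chosen after seeing the data), where its change was 0.023. Both leave out probe 6277 by construction, the first because it took probe 3534 alone. For the others the cause was not tested. Without 1 array, the untreated median of the repair genes ranged from -0.053 (without untreated replicate 1) to 0.077. Counts of repair genes at an unadjusted p under 0.05 ranged from 1 to 5 with nocodazole, 1 to 7 untreated, 1 to 6 for the mean and 0 to 4 for the change. Shares over all features ranged from 2.51% to 5.13% with nocodazole, 4.74% to 10.6% untreated, 3.81% to 10.6% for the mean and 2.65% to 4.89% for the change. Without untreated replicate 4 the counts, of 36 tested, were 5 with nocodazole (against 2.63% of features), 5 untreated (5.10%), 6 for the mean (4.29%) and 2 for the change (3.27%). With the replicate number as a replicate block, 0 features were called in each comparison and Ercc6 over the mean was 0.60. The arrays limit these results: 9 of 47 genes had too few values to test.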
